A study of Homo sapiens with 8 samples.

Results

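The peaks described here lie on human chromosome 16 between 34 and 36 Mb in the hg19 build, near the centromere. They are all peaks with both ends inside these borders in 8 deposited lists of called peaks, 1093 of 94404 peaks in all. The lists come from ChIP-seq, which recovers with an antibody the DNA fragments held by a protein and sequences them, in T47D, an established human breast cancer line. The glucocorticoid receptor (GR) was precipitated with a mix of 2 antibodies from T47D A1/2 cells (A1-2 from here on), described by the series as expressing both receptors, after 60 min with 10 nM dexamethasone (Dex, a synthetic glucocorticoid), after 60 min with 10 nM R5020 (a synthetic progestin), or without hormone. The progesterone receptor (PR) was precipitated with 1 antibody from A1-2 cells after R5020 or without hormone, and in the same way from T47D MTVL WT cells (MTVL), the line the labels name as control. Input DNA of A1-2 cells, sequenced with no antibody, completes the 8 libraries. The labels give 1 growth protocol, naming T47D-WT and T47D/A1-2 cells, with 48 h in charcoal-stripped serum and 24 h without serum. With 1 library in each condition, replicate error cannot be estimated and p-values are left out. The read depth of the libraries is unknown, and the number of called peaks moves with depth.

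GR and PR are ligand-activated transcription factors of 1 receptor family that recognise closely related DNA elements, and without ligand they are largely held in chaperone complexes. Sequence next to centromeres is rich in satellite repeats and in segments copied between chromosomes, with few genes. Short reads are harder to place there than in unique sequence, and reference builds differ in how they represent it. No hg19 genome or annotation was used here, so peaks are given by position and score, with neither sequence nor genes. The number of peaks in the block was what drew attention to it in earlier results of these data, so the members were chosen by measured peak positions, and their counts are a description that supports nothing by itself.

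In A1-2 cells every receptor library had a dense field of peaks in the block. With GR antibodies 271 peaks were called after Dex, 318 after R5020 and 116 without hormone. With the PR antibody 262 peaks were called after R5020 and 123 without hormone. MTVL cells had 3 PR peaks there after R5020 and 0 without hormone, and the A1-2 input list had 0. The block thus held 1.46% (1.29 to 1.65) of the GR peaks after Dex, 26.5% (24.1 to 29.1) of those after R5020 and 25.5% (21.6 to 29.8) of those without hormone. For PR in A1-2 cells the shares were 0.917% (0.810 to 1.03) after R5020 and 17.7% (15.0 to 20.8) without hormone, and for PR in MTVL cells after R5020 the share was 0.00691% (0.00143 to 0.0202). These are exact (Clopper-Pearson) 95% intervals, which cover counting error only, and neighbouring peaks are not independent. The 0 peaks of 1338 in the input list allow a share of up to 0.224%, and the 0 of 221 in untreated MTVL cells allow up to 1.36%, both taken as 3 counts of the total and not as the exact bound.

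**Figure D1:**
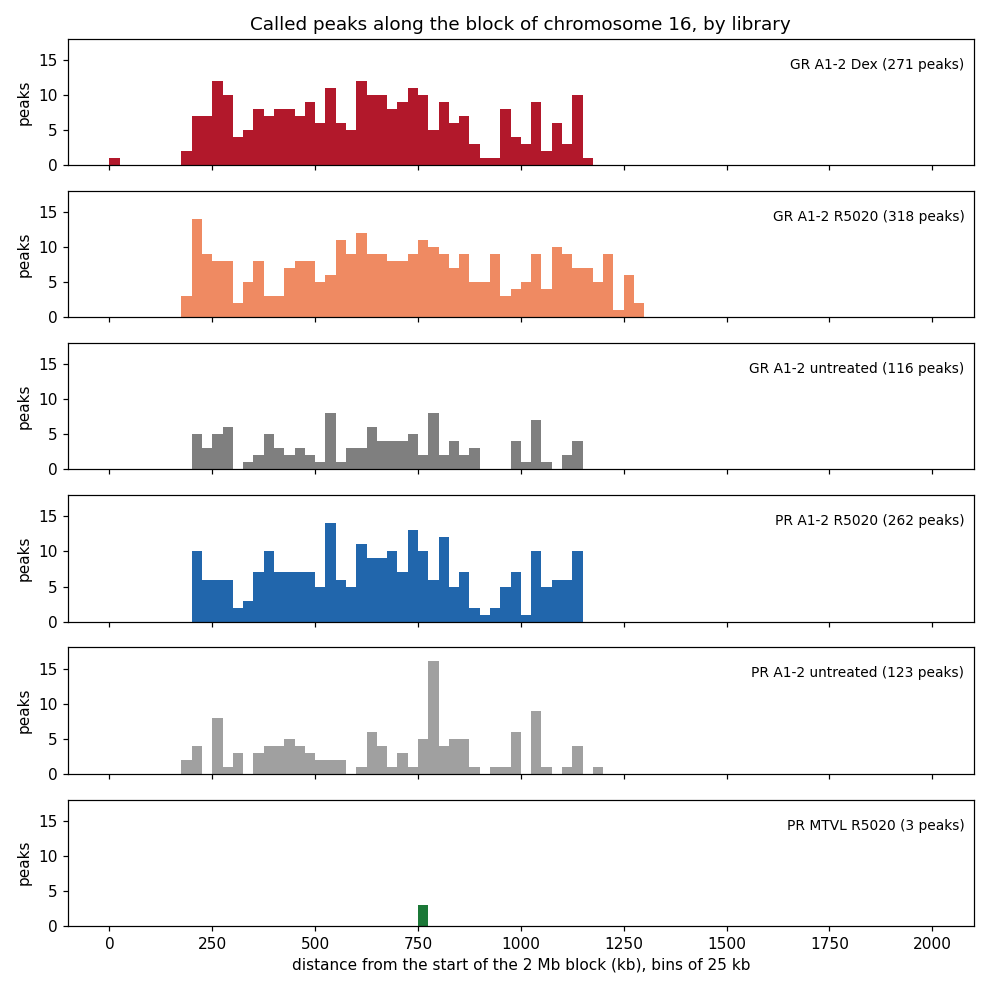
Number of called peaks (vertical axis) in bins of 25 kb along the block (horizontal axis, distance from its start in kb), 1 panel for each library with peaks there. The 5 A1-2 receptor lists fill largely the same stretch up to 1200 kb, and past it only GR after R5020 has peaks (18). The 3 MTVL peaks fall in 1 bin.

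The peaks did not fill the block. Except for 1 GR peak after Dex at chr16:34022521-34022923 (score 113), they lay between 34182235 and 35278385, a stretch of 1096 kb. The score is the authors' value for a peak, read as -10 times the log10 of its p. It moves with depth, which is unknown, so it served to rank peaks in a list and to set a minimum, and scores of different lists printed side by side are not on 1 scale. Beyond that stretch no list had a peak up to the upper border of the block. Whether the build holds sequence there on which reads can be placed was not examined. The lack of peaks there is therefore not read as a lack of binding. In all 5 A1-2 receptor lists the fullest bin of 200 kb was the 1 from 34.6 to 34.8 Mb, with 75, 76 and 36 GR peaks after Dex, after R5020 and without hormone, and 75 and 37 PR peaks after R5020 and without hormone. Past 35.2 Mb only GR after R5020 had peaks, 18 in number. On a grid of 2 Mb windows over the genome the block was the window with the most peaks in each of these 5 lists. The window ranked next held 93 peaks for GR after Dex, 28 for GR after R5020, 21 for untreated GR, 107 for PR after R5020 and 27 for untreated PR. In MTVL cells after R5020 the block ranked 1382 among 1424 windows with a peak, against a median of 28 peaks in a window.

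The number of peaks with and without ligand differed far less in the block than over the rest of the lists for GR with Dex and for PR with R5020. In the block GR had 2.34 times as many peaks after Dex as without hormone, against 53.9 times outside it. PR had 2.13 times as many after R5020 as without hormone in A1-2 cells, against 49.7 times outside. For GR with R5020 the ratios were 2.74 in the block and 2.60 outside. In covered length the block ratios were larger. GR peaks covered 263 kb of the block after Dex, 525 kb after R5020 and 24.9 kb without hormone, which makes 10.5 and 21.1 times the untreated length. PR peaks of A1-2 cells covered 249 kb after R5020 and 26.3 kb without hormone, or 9.43 times. The ratios of peak number rested on weak untreated peaks. Keeping peaks with scores of 200 or more, 16 untreated GR and 15 untreated PR peaks were left in the block. The ratios there were then 8.56 for GR with Dex, 13.1 for GR with R5020 and 9.53 for PR with R5020, against 96.0, 5.18 and 71.0 outside.

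**Figure D2:**
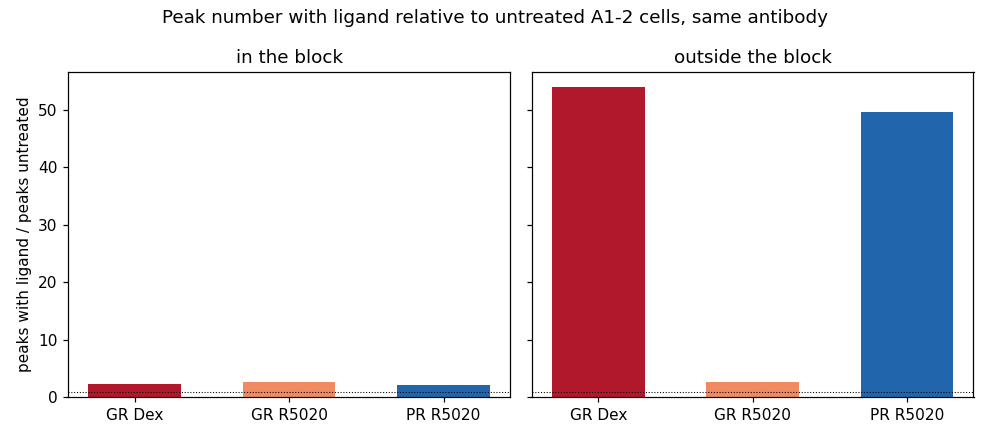
Ratio of the number of peaks with ligand to the number without hormone for the same antibody in A1-2 cells (vertical axis), in the block (left) and outside it (right). A dotted line marks a ratio of 1. The bars for GR after Dex and PR after R5020 stand at 2.34 and 2.13 in the block and at 53.9 and 49.7 outside, while GR after R5020 stands at 2.74 and 2.60.

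The block was nearly empty in the other cell line. After R5020 the PR antibody gave 262 peaks in the block in A1-2 cells and 3 in MTVL cells, a ratio of 87.3, while outside the block the A1-2 list was 0.652 times as long as the MTVL list. Of the 262 A1-2 peaks 3 overlapped an MTVL peak (1.15%, 0.237 to 3.31), against 82.6% over the whole A1-2 list. Of the 271 GR peaks after Dex 3 did (1.11%, 0.229 to 3.20), against 69.3% over the whole list. Overlap here and throughout means at least 1 bp. In 2 Mb windows of chromosome 2 from 98 to 100 Mb and of chromosome 12 from 124 to 126 Mb, which held the most untreated A1-2 peaks after the block, MTVL cells had 27 and 39 PR peaks after R5020. There 51.9% (31.9 to 71.3) of 27 and 43.2% (28.3 to 59.0) of 44 A1-2 PR peaks overlapped an MTVL peak. In the chromosome 2 window GR had 23 peaks after Dex and 21 without hormone, and in the chromosome 12 window 36 and 16. The number after Dex was thus near the untreated one in the chromosome 2 window and 2.25 times it in the chromosome 12 window, compared with 2.34 times in the block. For PR of A1-2 cells the number after R5020 was 1 and 1.91 times the untreated one in these windows, compared with 2.13 times in the block. Low ratios were thus also present in these windows, which were picked by their untreated peaks. Copy number of the block in either line was not analysed here.

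The MTVL peaks fell on sites that scored near the top of the A1-2 block peaks of GR after Dex and of PR after R5020. The strongest, at chr16:34760122-34761045 (924 bp, score 776), lay within the highest-scoring block peak of GR after Dex, at chr16:34759970-34761716 (1747 bp, score 2740.1). It also lay within the highest-scoring block peak of PR after R5020 in A1-2 cells, at chr16:34760038-34761579 (1542 bp, score 3100, a value that many peaks share). Without hormone that site had the second GR peak of the block by score, at chr16:34760276-34761138 (score 670), and the third PR peak of A1-2 cells, at chr16:34760196-34761249 (score 690). The second MTVL peak, at chr16:34758317-34758827 (score 357), lay within the Dex peak of rank 3 (chr16:34758233-34758988, score 2179) and the A1-2 PR peak of rank 2 (chr16:34758279-34759045, score 2891). It had an untreated PR peak of A1-2 cells of 151 bp (score 124, rank 58 of 123) beneath it and no untreated GR peak. The third and weakest, at chr16:34750932-34751250 (score 107), lay within peaks of rank 12 of 271 for GR after Dex (score 960) and rank 11 of 262 for PR after R5020 (score 1263). GR after R5020 had 2 peaks there, at ranks 73 and 169 of 318, and no untreated peak of A1-2 cells overlapped it. At the other 2 sites GR after R5020 had 1 peak across both, at chr16:34758354-34761956 (3603 bp, score 698), which ranked 69 of 318. Among block peaks these sites thus ranked high for GR after Dex and for PR after R5020 in A1-2 cells, and lower for GR after R5020. Of the 3 MTVL peaks, 3 overlapped a GR Dex peak (29.5% over the whole MTVL list), 3 an A1-2 PR peak after R5020 (53.9%) and 3 a GR R5020 peak (0.592%), while 1 overlapped an untreated GR peak (0.124%) and 2 an untreated A1-2 PR peak (0.449%).

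**Figure D3:**
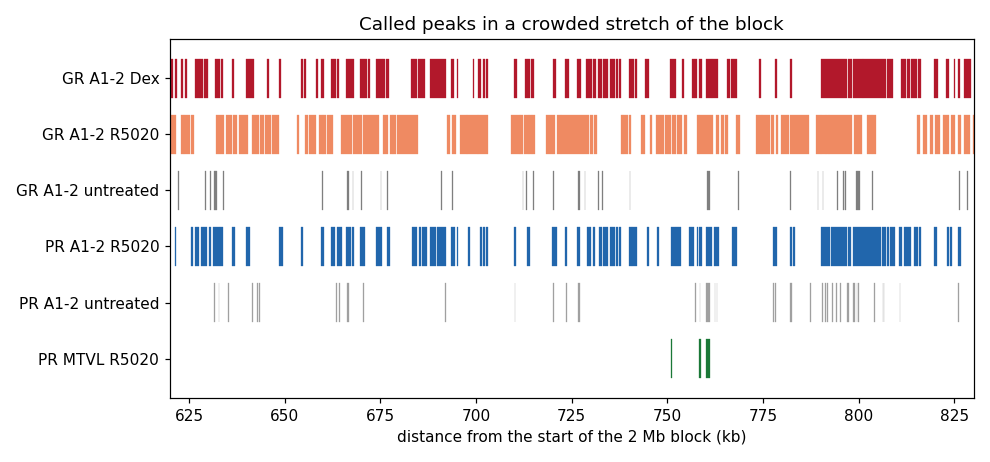
Called peaks in a crowded stretch around the MTVL peaks (horizontal axis, distance from the start of the block in kb), 1 row for each library, each bar 1 peak from start to end with a hairline outline. Bars of GR after Dex and PR after R5020 line up in many places, untreated peaks are thin bars at or near them, and the 3 MTVL peaks lie under bars of GR after Dex and of PR after R5020.

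Peaks in the block differed in shape with ligand. Their median width was 742 bp for GR after Dex, 1068 bp for GR after R5020 and 169 bp for GR without hormone. For PR in A1-2 cells it was 688 bp after R5020 and 168 bp without hormone. Untreated block peaks were narrower than the untreated peaks elsewhere, with medians of 263 bp outside the block for GR and 278 bp for PR. Peaks after ligand had medians close to those elsewhere, at 659, 963 and 647 bp outside the block in the order GR Dex, GR R5020 and PR R5020, but a longer upper tail. Peaks over 2 kb made up 5.90% of the block peaks and 1.05% of the others for GR after Dex, 23.0% and 15.5% for GR after R5020, and 6.87% and 1.05% for PR after R5020. The widest measured 6892 bp for GR after Dex, 11826 bp for GR after R5020 and 7434 bp for PR after R5020, against 1018 and 1183 bp for untreated GR and PR. Of 28 GR R5020 peaks over 5 kb in the genome, 15 lay in the block and 13 elsewhere.

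**Figure D4:**
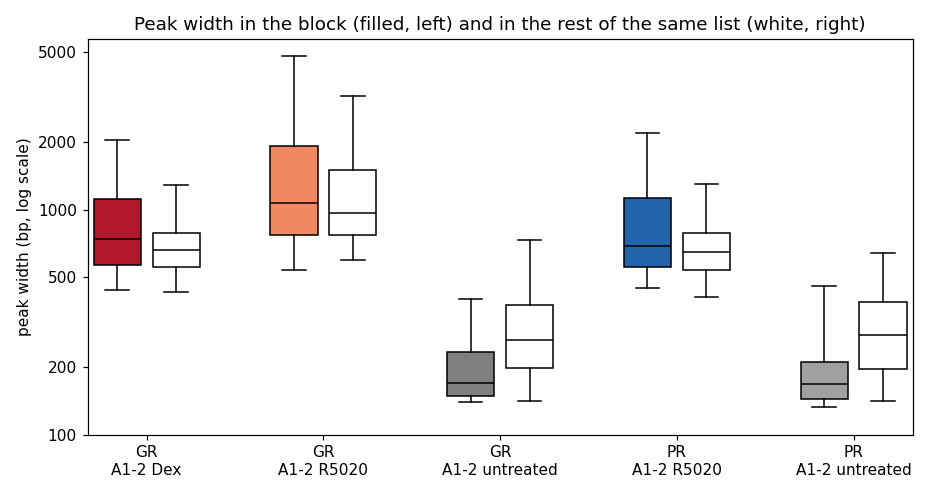
Width of called peaks in bp (vertical axis, log scale) for the 5 A1-2 receptor lists, in the block (filled boxes, left of each pair) and in the rest of the same list (white boxes). Boxes span the quartiles with the median as a line, and whiskers reach the 5th and 95th percentiles. Untreated block peaks, with medians of 169 and 168 bp, lie under the rest of their lists, and treated block peaks spread further up.

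Scores of block peaks lay above or under those of the rest, depending on the list. Their median score was 201 for GR after Dex against 192 for the rest of the list, and 283 against 220 for GR after R5020. For untreated GR it was 122 in the block and 140 elsewhere. For PR in A1-2 cells it was 214 in the block and 244 elsewhere after R5020, and 124 and 165 without hormone. Scores of 1000 or more were found in 3.32% of the block peaks and 5.88% of the others for GR after Dex, and in 5.73% and 13.7% for PR after R5020. For GR after R5020 the shares were close, at 12.6% and 13.2%. No untreated peak of the block reached 1000, and 100 of the 116 untreated GR peaks and 108 of the 123 untreated PR peaks scored under 200. Score went with width more closely in the block than elsewhere. Spearman's rho of width and score over peaks was 0.873 for GR after Dex, 0.955 for GR after R5020, 0.831 for untreated GR, 0.908 for PR after R5020 and 0.805 for untreated PR. In the rest of those lists it was 0.467, 0.422, 0.446, 0.480 and 0.667 in the same order. Points in each of these are peaks of 1 library, whose width and score come from the same reads.

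The 3 block peaks of highest score of GR after R5020 were broad, at 7205 to 9284 bp. The first, at chr16:35148457-35157740 (9284 bp, score 3178), overlapped a single GR peak after Dex (score 219.5) and a single PR peak after R5020 (score 246), and no untreated peak. The second, at chr16:34722173-34729557 (7385 bp, score 3100), overlapped 3 GR peaks after Dex, 3 PR peaks after R5020, 2 untreated GR peaks and 2 untreated PR peaks. The third, at chr16:34890097-34897301 (7205 bp, score 2990.3), overlapped no peak of any other A1-2 receptor list. After Dex the second GR block peak by score was also broad, at chr16:34790141-34797032 (6892 bp, score 2696). It overlapped 5 untreated GR peaks, 6 untreated PR peaks, 2 PR peaks after R5020 (highest score 2401) and 3 GR peaks after R5020 (highest score 929). The third PR block peak after R5020, at chr16:34798486-34805919 (7434 bp, score 2712), lay just beyond it. That PR peak overlapped 2 GR peaks after Dex (highest score 2172), 3 untreated GR peaks and 4 untreated PR peaks.

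The median spacing in the block was a few kb or less in every A1-2 receptor list. The median distance from the end of a peak to the start of the next was 1244 bp for GR after Dex, 626 bp for GR after R5020 and 3462 bp for GR without hormone. For PR in A1-2 cells it was 1297 bp after R5020 and 2240 bp without hormone. Outside the block the medians were 45.2, 735 and 289 kb for GR after Dex, after R5020 and without hormone, and 31.3 and 53.9 kb for PR after R5020 and without hormone. Neighbours less than 1 kb apart made up 43.7% of the block distances after Dex, 62.8% after R5020 and 19.1% without hormone for GR, against 6.07%, 16.7% and 22.9% in the rest of the lists. For PR they made up 45.6% after R5020 and 34.4% without hormone, against 7.58% and 23.5% in the rest. For untreated GR such neighbours thus made up no larger a share in the block than elsewhere. The smallest distances were 3, 3 and 8 bp for GR after Dex, after R5020 and without hormone, and 1 and 10 bp for PR after R5020 and without hormone, so that adjoining called peaks need not be separate sites. With all 5 lists merged, peaks formed 2 runs of at least 5 positions with gaps of at most 20 kb. The first reached from 34182235 to 35221026 (1039 kb) with 390 merged positions and 1080 peaks. The second reached from 35248995 to 35278385 (29.4 kb) and held 9 peaks, all of GR after R5020. With gaps of at most 10 kb the first run split into 4, of which the longest, from 34406659 to 34946354, held 646 peaks and the 3 MTVL peaks.

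Peaks of GR after Dex and of PR after R5020 recurred at the same positions. Of the 271 GR Dex peaks 195 overlapped an A1-2 PR peak after R5020 (72.0%, 66.2 to 77.2), close to the 73.9% over the whole Dex list. Of the 262 A1-2 PR peaks after R5020, 203 lay over a GR peak after Dex (77.5%, 71.9 to 82.4), against 48.0% over the whole PR list. Midpoints of overlapping peaks stood a median of 116 bp apart. Because peaks are dense in the block, length bears on these shares: GR Dex peaks covered 24.0% of the 1096 kb stretch, GR R5020 peaks 47.9%, untreated GR peaks 2.28%, PR R5020 peaks 22.7% and untreated PR peaks 2.40%. The 76 Dex peaks without a PR peak were weaker and narrower, with medians of 133 in score and 552 bp in width. The 195 had medians of 258 and 867 bp. A narrower peak has less room to overlap by 1 bp, which also bears on the like contrasts of score below.

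A larger share of the untreated peaks overlapped a peak after ligand than an untreated peak of the other antibody, whose peaks cover far less of the stretch. Of the 116 untreated GR peaks 86 overlapped a GR Dex peak (74.1%, 65.2 to 81.8, against 70.3% over the whole list), and 85 of these 86 lay wholly inside it. Of the 123 untreated PR peaks 95 overlapped a PR peak of A1-2 cells after R5020 (77.2%, 68.8 to 84.3, against 75.9% over the whole list), and 91 of these lay wholly inside. These shares were near those of the whole lists. Across antibodies 78.4% (69.9 to 85.5) of the untreated GR peaks overlapped a PR peak after R5020, where the whole list had 73.0%. Likewise 80.5% (72.4 to 87.1) of the untreated PR peaks overlapped a GR peak after Dex, where the whole list had 53.8%. Between the untreated lists 31 of 116 GR peaks overlapped a PR peak (26.7%, 18.9 to 35.7, against 39.6% over the whole list). In the other direction 33 of 123 PR peaks overlapped a GR peak (26.8%, 19.2 to 35.6, against 26.4%). The untreated GR peaks shared with PR were stronger and wider (median score 188, 272 bp) than the 85 others (119, 164 bp), and midpoints of shared ones stood a median of 66.5 bp apart.

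Peaks after ligand with an untreated peak beneath were wider and had higher median scores. Of the GR Dex peaks in the block 71 (26.2%, 21.1 to 31.9) overlapped an untreated GR peak, against 1.33% over the whole list, and 68 (25.1%) an untreated PR peak, against 1.47%. The 71 had a median score of 410 and a median width of 1198 bp, compared with 179 and 674 bp for the 200 without one. Of the PR R5020 peaks 64 (24.4%, 19.3 to 30.1) overlapped an untreated PR peak, against 1.44% over the whole list, and 74 (28.2%) an untreated GR peak, against 0.928%. The whole-list shares are limited by list length, with 455 untreated GR and 693 untreated PR peaks against 18538 GR Dex and 28563 PR R5020 peaks. In the block the counts were 116 and 123 against 271 and 262, so these contrasts partly restate peak numbers. The medians of the 64 were 404 and 1063 bp, compared with 191 and 656 bp for the other 198. A wider peak has more room to overlap another by 1 bp. Score also went with width in the block, with a rho of 0.873 for GR after Dex and 0.908 for PR after R5020. The contrast in score therefore cannot be told apart from the contrast in width. Elsewhere in the genome the same contrast was present for GR after Dex, with a median score of 306 for 176 peaks with an untreated peak and 192 for the 18091 without, and smaller for PR after R5020, with 273 for 347 peaks and 243 for 27954.

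**Figure D5:**
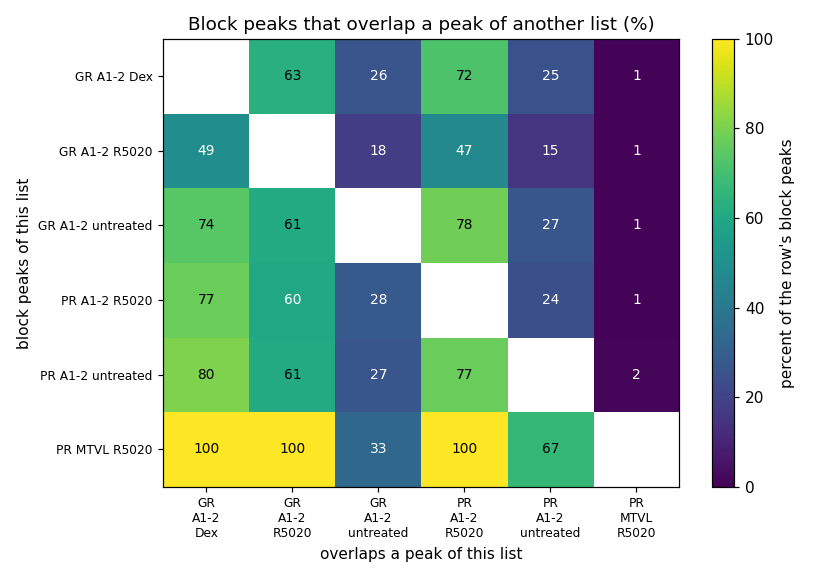
Percent of the block peaks of each list (rows) that overlapped a peak of each other list (columns) by at least 1 bp. The cells between GR after Dex and PR after R5020 hold 72 and 77, those between the untreated lists 27 and 27, and the MTVL column stays at 1 or 2.

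GR peaks after R5020 overlapped those of the other A1-2 lists with their midpoints further off. Of its 318 block peaks 156 overlapped a GR Dex peak (49.1%, 43.4 to 54.7, against 43.5% over the whole list) and 150 an A1-2 PR peak after R5020 (47.2%, 41.6 to 52.8, against 44.8%). Seen from the other side, 172 GR Dex peaks (63.5%, 57.4 to 69.2) overlapped a GR R5020 peak, against 3.18% over the whole Dex list. Likewise 156 PR R5020 peaks (59.5%, 53.3 to 65.5) did, against 2.07%. So did 71 untreated GR peaks (61.2%), against 40.7%, and 75 untreated PR peaks (61.0%), against 35.6%. In the block GR R5020 peaks covered 47.9% of the stretch. The whole GR R5020 list has 1198 peaks, against 18538 for GR Dex and 28563 for PR R5020, which keeps those whole-list shares low. These contrasts therefore do not by themselves show that peaks share sites. Midpoints of GR R5020 peaks stood a median of 477 bp from those of GR Dex peaks and 540 bp from those of PR peaks. With midpoints within 200 bp asked for, the shares were 11.9% and 10.7%, compared with 47.6% for GR Dex peaks at PR R5020 peaks. In 126 cases (39.6%) a GR R5020 peak overlapped no peak of the other 4 lists, against 48.5% over the whole list and 51.7% outside the block, so that such peaks were no more frequent in the block. The 126 had a median score of 254 and a median width of 956 bp, against 305 and 1161 bp for the 192 others. Among the 126, 13 scored 1000 or more, and all 18 peaks past 35.2 Mb belonged to them.

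Merging overlapping block peaks of the 5 A1-2 receptor lists gave 400 positions over 712 kb. Peaks of all 5 lists were joined at 28 of them (7%), of 4 lists at 38, of 3 at 65, of 2 at 92 and of 1 at 177. Positions held by more lists were longer, with a median of 5236 bp for the 28 and 750 bp for the 177, so that a merged position can hold several peaks of a list. Of the 177 held by 1 list, 126 were of GR after R5020, 20 of GR after Dex, 19 of PR after R5020, 8 of untreated PR and 4 of untreated GR. An untreated peak was present at 120 positions, and 108 of these also had a peak after ligand. With GR after R5020 left out, the other 4 lists gave 342 positions, of which 32 held all 4. With peaks over 2 kb left out, 8 positions held all 5 lists, and with a score of at least 200 also 8.

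Among the 28 positions, the highest untreated GR score stood at chr16:34439738-34446900. It held untreated peaks of both antibodies at nearly the same place, GR at chr16:34442117-34443134 (score 765) and PR at chr16:34442160-34443342 (score 786), each the highest of its list in the block. After Dex the GR peak there scored 778 and ranked 16 in the block, and after R5020 the PR peak scored 1264 and ranked 10. The site leading the block in the untreated lists thus did not lead it after ligand. At chr16:34758233-34763589, the position with the MTVL block peaks of ranks 1 and 2, the untreated GR peak scored 670. The highest Dex and PR R5020 peaks there were the first of their lists in the block, with higher scores elsewhere in both lists. At chr16:34722173-34730526 the untreated peaks scored 613 for GR and 498 for PR, at ranks 3 and 5 in the block. There GR had a score of 858 after Dex and 3100 after R5020, and PR had 1313 after R5020. The next 3 positions were longer and held several peaks per list. At chr16:34663564-34675569 the highest untreated scores were 361 for GR and 764 for PR, at chr16:34798485-34807244 they were 357 and 510, and at chr16:34419812-34430683 they were 337 and 477.

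Just below the block, and far above it where peaks resume, the same lists had far fewer peaks than in the block. From 33 to 34 Mb GR had 1 peak after Dex, 1 after R5020 and 3 without hormone, PR of A1-2 cells had 1 after R5020 and 1 without hormone, and the input list had 8. From 46 to 47 Mb, where the next peaks beyond the centromere lie, GR had 7, 1 and 5 peaks in that order, PR of A1-2 cells 11 and 12, MTVL cells 9 after R5020 and 0 without hormone, and the input list 7. For the untreated lists the 5 GR and 12 PR peaks from 46 to 47 Mb were many. Their median was 1 peak in a 2 Mb window with a peak. PR of A1-2 cells had no more peaks after R5020 than without hormone in that stretch. The nearest input peaks lay at chr16:33982179-33984824 (score 132) below the block and at chr16:46385653-46389724 (score 1511) above it. The nearest peaks just outside the block were chr16:33962725-33964506 (score 193) for GR after Dex, chr16:33925377-33926246 (score 102) for GR after R5020, chr16:33963797-33964196 (score 150) for untreated GR, chr16:33952803-33953568 (score 128) for PR after R5020 and chr16:33953123-33953476 (score 134) for untreated PR of A1-2 cells. The first peaks just inside were chr16:34182235-34186077 (score 172) for GR after R5020, chr16:34204077-34204293 (score 163) for untreated GR, chr16:34201317-34203047 (score 652) for PR after R5020 and chr16:34194244-34194677 (score 118) for untreated PR. Input peaks thus stood just below the block and none within it, and above it the nearest lay only beyond the centromere. The part of repeat content, mapping or copy number in the block's peaks was not tested.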

How the data were processed

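Receptor binding was measured by ChIP-seq in 8 libraries, grouped by their titles, with 1 library per condition. Per the submitters' processing notes the tools were bedtools, Bowtie 1.1.1 and MACS 1.4.2, and the build was hg19. For the control used in peak calling, read filters and depth, the sources used here give nothing. Each deposited list holds peaks of 1 library with a score, which the authors' peak caller gave per peak. Its lowest value is 100, 2566 peaks share the value 3100 and 233 exceed it, so ranks at that level carry little meaning.

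All deposited peaks with both ends in the block were used, input peaks included, with starts counted from 1. Overlap was at least 1 bp. The gene and promoter tables used here belong to a different build, and 0 genes were placed. Peaks named were the 3 block peaks of highest score per list, all MTVL block peaks, runs, and peaks next to the borders. The 6 positions held by all 5 lists with the highest untreated GR score were also named. The block, its members and these rules were chosen with earlier results of these data known. Overlap and run steps were tested on simulated data, and bedtools 2.31.1 gave equal counts for 20 of 20 pairs of lists. Python 3.11.15, numpy 2.4.6, pandas 2.3.3, scipy 1.17.1 and matplotlib 3.10.9 were used.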

Additional observations from a re-analysis of the deposited data

How the results depend on the processing

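Of 150 alternatives over 45 results, 97 stayed within the 95% interval of the reported value, or within 1.5 times for counts and ratios. The other 53 moved further, and reversal of direction was not scored. Borders of 33 to 36 Mb and leaving out peaks at input peaks moved none. With 0 input peaks in the block, leaving out peaks at input peaks could change only the ratios outside it. A score of at least 200 left 137, 209 and 16 GR peaks after Dex, after R5020 and without hormone, and 143 (R5020) and 15 (untreated) PR peaks in A1-2 cells. Ratios to untreated became 8.56 (GR Dex), 13.1 (GR R5020) and 9.53 (PR R5020), and outside the block 96.0 and 5.18 for GR. The block's share of the list became 30.7% (GR R5020), 15.0% (untreated GR) and 6.07% (untreated PR).

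Medians at that score, in the order GR Dex, GR R5020, untreated GR, PR R5020 and untreated PR, were 1089, 1526, 394.5, 1074 and 422 bp in width, 343, 462, 284, 358 and 284 in score, and 2763, 872, 36518, 1904 and 25651 bp in distance. Such a minimum removes the weakest peaks by construction. Shares at that score were 34.4% for GR R5020 peaks at GR Dex peaks, 31.1% at PR R5020 peaks, 87.5% and 43.8% for untreated GR at GR Dex and untreated PR, and 93.3% for untreated PR at PR R5020.

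Asking for 50% of the shorter peak to be covered gave 37.4% and 35.2% for GR R5020 at GR Dex and PR R5020. Midpoints within 200 bp gave 47.6% for GR Dex at PR R5020, 49.2% the other way, 11.9% and 10.7% for GR R5020 at GR Dex and PR R5020, 32.8% for untreated GR at GR Dex and 35.0% for untreated PR at PR R5020. Leaving out peaks over 2 kb, chosen after seeing the data like the merging without GR R5020, gave 64.7%, 71.7%, 41.2%, 38.0%, 52.6% and 52.0% in the same order, so untreated peaks often lay in wide ones. Positions in all 5 lists numbered 8 at the higher score, 2 with midpoints and 8 without wide peaks. Runs numbered 5 with gaps of at most 10 kb, 1 with 50 kb and 1 at the higher score. No paired analysis was possible because each condition has 1 library.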
